A study of Schizosaccharomyces pombe with 4 samples.

Results

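The genes for the proteins of the small ribosomal subunit of the fission yeast Schizosaccharomyces pombe, the rps genes, were followed in nascent RNA that had been read as single long molecules. The members were all nuclear protein-coding genes whose symbol begins with rps and a digit, 55 of the 5113 nuclear protein-coding genes of the annotation, and the mitochondrial gene of the same name as rps3 was left out. Of the 55 genes, 31 carry introns (25 with 1, 5 with 2 and rps13 with 3) and 24 carry none. They hold 38 of the 5204 introns, 37 in coding sequence and 1, in rps2202, in a 5′ UTR.

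Nascent RNA was isolated from the cells, freed of polyadenylated and ribosomal RNA, ligated to an adaptor at its 3′ end and sequenced as cDNA on a Pacific Biosciences instrument. The 3′ end of a read was taken as the place that the transcript had reached, and the same read shows whether the introns behind that place were still there. The 4 libraries form 3 groups. One library came from strain prp2-1, which carries leu1.32 and the prp2-C387Y allele, grown at 26 °C and then kept at 37 °C for 2 hours. One came from wild type (strain L972, h-) grown and shifted to 37 °C in the same way. A pair came from cells growing at 30 °C: replicate 2 from strain SP286 (prp5::KanMx-prp5-WT, h+) and replicate 1 from the wild-type strain L972 (h-). All cultures were grown in complete medium. The leu1.32 allele is absent from the labels of the wild types, so it cannot be told apart from the prp2 allele, and the 30 °C replicates differ in strain. With 1 library in each 37 °C group there is no replicate check. Every test below compares reads, either of 2 libraries or within 1 library, and not the conditions.

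The small subunit binds messenger RNA and reads its codons, and its proteins are needed in matched amounts with the ribosomal RNA. In fission yeast most of them are made from a pair of genes that code for almost the same protein, and introns in these genes usually lie near the 5′ end. prp2 codes for the large subunit of U2AF, which binds the stretch before the 3′ splice site when an intron is first recognised, and the prp2-1 strain serves as a splicing mutant that is sensitive to temperature.

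The introns on which the results below turn are printed from the RefSeq annotation of the ASM294v3 assembly, 5′ to 3′ on the strand of the gene. Capitals mark the first 6 bases (the 5′ splice site), the letters CTAAC where they occur (the core of the branch site), and the last 3 bases (the 3′ splice site). rps3 and rps502 hold the only rps introns called in the 37 °C comparisons, rps2402 and rps1702 those that differed most between the 30 °C libraries, rps13 and rps27 give the adjacent introns, and the rps25 genes differ in where their reads begin.
rps3 intron 1 (II:4239039-4239290, minus strand): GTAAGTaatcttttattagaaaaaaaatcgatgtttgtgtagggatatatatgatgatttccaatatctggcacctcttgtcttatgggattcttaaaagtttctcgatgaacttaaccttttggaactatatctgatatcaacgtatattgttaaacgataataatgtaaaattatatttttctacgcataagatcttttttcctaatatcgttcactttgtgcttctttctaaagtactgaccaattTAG
rps502 intron 1 (I:3496989-3497276, minus strand): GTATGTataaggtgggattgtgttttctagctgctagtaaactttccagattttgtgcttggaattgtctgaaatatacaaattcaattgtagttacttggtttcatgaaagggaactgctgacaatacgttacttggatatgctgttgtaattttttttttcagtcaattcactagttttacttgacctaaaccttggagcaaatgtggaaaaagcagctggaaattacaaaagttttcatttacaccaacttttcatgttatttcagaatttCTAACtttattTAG
rps2402 intron 1 (II:2181000-2181080, plus strand): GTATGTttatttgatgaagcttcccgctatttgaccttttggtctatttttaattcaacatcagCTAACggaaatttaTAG
rps1702 intron 1 (III:917867-917930, plus strand): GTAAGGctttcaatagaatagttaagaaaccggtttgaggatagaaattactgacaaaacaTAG
rps13 intron 1 (I:2746336-2746438, minus strand): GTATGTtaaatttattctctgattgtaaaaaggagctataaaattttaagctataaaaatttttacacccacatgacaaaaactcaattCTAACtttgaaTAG
rps13 intron 2 (I:2746240-2746302, minus strand): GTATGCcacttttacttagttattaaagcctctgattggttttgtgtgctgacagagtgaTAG
rps13 intron 3 (I:2746129-2746192, minus strand): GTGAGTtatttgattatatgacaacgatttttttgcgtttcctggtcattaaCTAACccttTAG
rps27 intron 1 (II:517350-517387, plus strand): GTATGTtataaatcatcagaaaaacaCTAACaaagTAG
rps2502 intron 1 (I:4208795-4208844, minus strand): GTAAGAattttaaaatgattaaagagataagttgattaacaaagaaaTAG
rps2501 intron 1 (II:1274253-1274302, plus strand): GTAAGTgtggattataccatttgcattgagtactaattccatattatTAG

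The intron of rps3 holds the small nucleolar RNA gene snR48, of 75 nt, on the same strand. Of the 38 rps introns, 12 (31.6%) begin with GTATGT, against 19.8% of all introns, 23 (60.5%) hold CTAAC on the transcribed strand, against 44.8%, and 32 (84.2%) end in TAG, against 68.4%. The rps introns with GTATGT and CTAAC are partly the same ones, and a match of letters is a description only. Among those printed, rps3 intron 1, rps1702 intron 1, rps13 intron 2 and both first introns of the rps25 genes have no CTAAC. Absence of these exact letters does not show that a branch site is missing.

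The libraries held 33746 aligned reads in prp2-1, 32176 in the 37 °C wild type, 45318 in 30 °C replicate 2 and 123756 in 30 °C replicate 1. Reads on protein-coding genes numbered 25032, 25904, 32279 and 61941 in the same order of libraries. The median rps read spanned 580 nt in prp2-1 and 641.5 nt in the 37 °C wild type, against 528 nt in replicate 2 and 367 nt in replicate 1. Most rps reads began within 50 nt of the annotated gene start, 85.4% in prp2-1, 86.9% in the 37 °C wild type, 86.9% in replicate 2 and 76.2% in replicate 1. In the 37 °C libraries, which share all 6 sequencing cells, 77 of the rps reads of prp2-1 and 90 of those of the wild type bear a read name that is also in the other library. Without repeated names the rps spliced share was 45.6% in prp2-1 and 49.5% in the 37 °C wild type (-3.88 points), rps reads were 2.11% and 2.05% of the protein-coding reads, and rps reads past the gene end were 7.5% and 20.6%. Intervals throughout are at 95% and cover counting error only, because PCR copies could not be told from separate molecules.

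Reads on rps genes made up 2.27% of the protein-coding reads in prp2-1 (568 reads) and 2.26% in the 37 °C wild type (586 reads). The difference was 0.0069 percentage points (interval -0.252 to 0.266). At 30 °C they made up 4.13% in replicate 2 (1333 reads) and 6.11% in replicate 1 (3784 reads), a mean of 5.12% ± 1.4 (SD, n = 2). Both 37 °C libraries thus lay below both 30 °C libraries, and the difference between the 37 °C wild type and replicate 1, the same strain, was -3.85 points (-4.11 to -3.58). The difference between the 37 °C wild type and replicate 2 was -1.87 points (-2.15 to -1.58), and that between replicates 2 and 1 was -1.98 points (-2.27 to -1.69). Genes of the large subunit (rpl) moved the same way, with 3.00% in prp2-1, 3.41% in the 37 °C wild type, 4.95% in replicate 2 and 7.85% in replicate 1. In bulk RNA fewer cells and less RNA per cell cannot be told apart.

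A read was found on 54 rps genes in prp2-1, 52 in the 37 °C wild type and all 55 in each 30 °C library. The median gene had 7, 8, 18 and 46 reads in prp2-1, the 37 °C wild type, replicate 2 and replicate 1. Genes were compared by their share of the protein-coding reads, and a gene was counted as different at a ratio of 2 or more between libraries where these held at least 20 of its reads together.

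**Figure D1:**
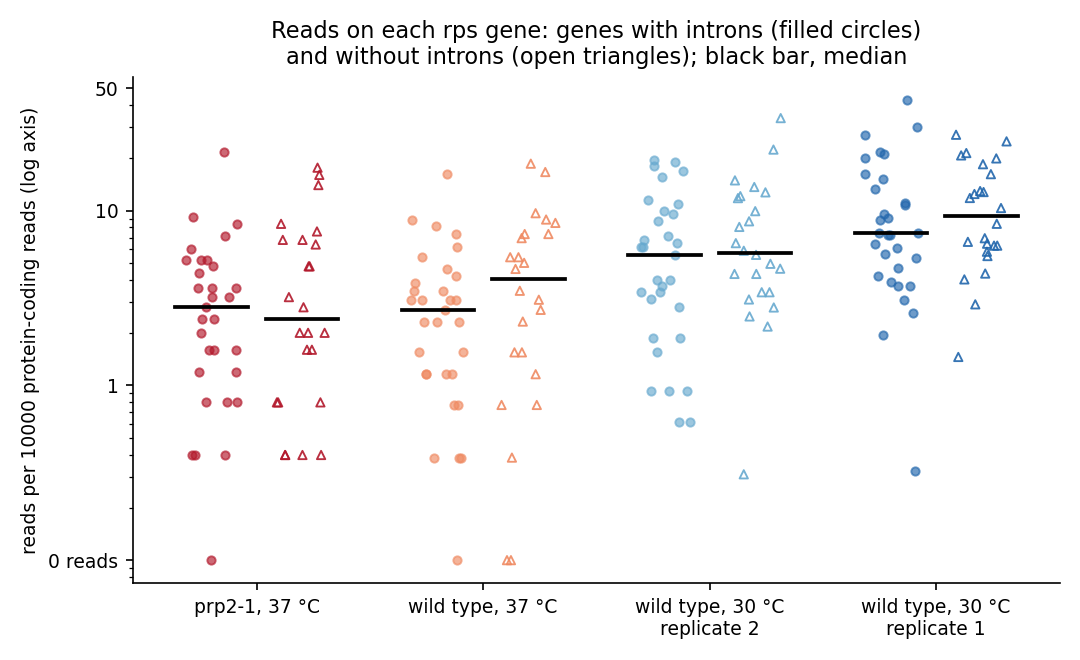
Reads on each of the 55 rps genes per 10000 protein-coding reads (log axis; genes with no read are drawn at the bottom) in the 4 libraries, with filled circles for the 31 genes with introns, open triangles for the 24 without, and black bars for medians. The medians of both kinds are lower in the 37 °C libraries, where they lie between 2.40 and 4.05, than in the 30 °C libraries, where they lie between 5.58 and 9.36.

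Between prp2-1 and the 37 °C wild type, 2 of the 20 rps genes with enough reads were higher in prp2-1 and 0 were lower. Over all 560 genes with enough reads, 9.82% were higher and 8.57% lower, so the rps count is near the background. rps2401, for eS24, was among the higher ones, with 15 reads in prp2-1 and 6 in the wild type, a ratio of shares of 2.59. The median ratio was 0.949 over the 20 rps genes and 0.987 over all genes.

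The 37 °C wild type differed more widely from 30 °C replicate 1, with 38 of 50 rps genes lower and 0 higher, against 19.8% lower and 16.9% higher among 1069 genes. The median ratio was 0.345 for rps genes and 1.09 for all genes. Of the 28 rps genes with introns 23 were lower (median ratio 0.279), and of the 22 without introns 15 were lower (0.413). The rpl genes had 57 of 72 lower and 0 higher. Against replicate 2 of 30 °C, the 37 °C wild type was lower at 14 of 35 rps genes and higher at 0, against 16.1% lower and 16.1% higher among 707 genes. There the median rps ratio was 0.623, and 20 of 43 rpl genes were lower and 3 higher. Replicate 2 was itself lower than replicate 1 at 13 of 51 rps genes and higher at 0, against 13.8% and 12.2% of 1125 genes. Read spans were longer in the libraries with the lower rps shares, as given above. With only reads of at least 500 nt kept, the rps share was 1.81% in the 37 °C wild type, against 5.86% in replicate 1, and 24 of 28 rps genes were lower in the 37 °C wild type, against 22.8% of 429 genes.

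Factors that assemble the small subunit were measured too sparsely to be read as a group. Of 15 matched assembly genes, 1 had enough reads in prp2-1 against the 37 °C wild type, and 2 in each comparison of the 37 °C wild type with a 30 °C library.

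The 6 rps genes with the most reads over the libraries were rps3, rps7, rps1202, rps601, rps2502 and rps2602. This is an order of read counts, not of levels per length. rps3 (SPBC16G5.14c), for uS3 at the entry of the messenger RNA channel, had 54 reads in prp2-1 and 42 in the 37 °C wild type, 35 in replicate 2 and 266 in replicate 1. In 3 of the 4 libraries most of these were not reads along the gene. Reads that lay wholly inside the intron that holds snR48 numbered 40, 31, 14 and 165 in the same order, which leaves 14, 11, 21 and 101.

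rps7 (SPAC18G6.14c), the gene of eS7 and without an intron, had 44 reads in prp2-1, 48 in the 37 °C wild type, 109 in replicate 2 and 168 in replicate 1. Per 10000 protein-coding reads this was 17.6, 18.5, 33.8 and 27.1, so replicate 2 was the highest library for this gene. rps601 (SPAC13G6.07c) codes for S6, the ribosomal protein that is phosphorylated when cells grow, and has no intron. It had 15.98 reads per 10000 in prp2-1, 16.6 in the 37 °C wild type, 22.3 in replicate 2 and 18.4 in replicate 1. Its levels thus lay close together where most rps genes were lower at 37 °C.

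rps1202 (SPBC1685.02c), for eS12, had 5.19 reads per 10000 in prp2-1, 8.11 in the 37 °C wild type, 18.9 in replicate 2 and 29.9 in replicate 1. rps2502 (SPAC694.05c), for eS25, had 3.60, 3.47, 18.0 and 27.0 in the same order. rps2602 (SPAC1805.11c), for eS26 at the exit of the messenger RNA channel, had 7.19, 8.88, 19.5 and 21.5. The 30 °C libraries lay above the 37 °C libraries at each of these 3 genes, all of which carry introns, and also at rps7 and rps601, which carry none.

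The 55 genes fall into 31 families by the number in their symbol: 8 of 1 gene, 22 of 2 and the rps4 family of 3. Within families the coding sequences were identical at 74.3% to 94.0% of aligned bases (median 88.0% of 25 pairs). How reads that match both copies were placed is not given in the sources used here. In 13 of the 22 pairs the same gene had more reads in all 4 libraries, and in 19 the same gene led in both 30 °C libraries. Both genes of a pair carry introns in 11 families, neither does in 7, and 4 are mixed.

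In the mixed pairs no fixed side led. In family 0 (uS2), rps001 with its intron had 8 reads in prp2-1, 10 in the 37 °C wild type, 10 in replicate 2 and 55 in replicate 1, and rps002 without one had 21, 23, 44 and 77. The intronless gene led in all 4 libraries. In family 26 (eS26) the gene with the intron led everywhere: rps2602 had 18, 23, 63 and 133 reads and rps2601 had 1, 2, 7 and 9.

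The other mixed pairs changed sides. In family 9 (uS4), rps901 with its intron had 9 reads in prp2-1, 9 in the 37 °C wild type, 11 in replicate 2 and 45 in replicate 1, where rps902 had 1, 4, 18 and 27, so that replicate 2 alone had more on the intronless gene. In family 22 (uS8), rps2202, whose intron lies in the 5′ UTR, had 4, 4, 13 and 19 reads and rps2201 had 4, 3, 19 and 73. The intronless gene had more reads in both 30 °C libraries, and the counts at 37 °C were too low to separate the copies.

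Of the other families with the most reads, the 3 genes of family 4 (eS4), none with an intron, were all read in each library, and rps402 had the fewest reads or tied for the fewest. In prp2-1 rps401, rps402 and rps403 had 17, 16 and 17 reads, in the 37 °C wild type 19, 19 and 25, in replicate 2 38, 28 and 39, and in replicate 1 154, 79 and 123. Family 1 (eS1) leaned to rps102, with 19, 18, 48 and 128 reads in prp2-1, the 37 °C wild type, replicate 2 and replicate 1, against 12, 14, 26 and 80 on rps101. Family 12 was mostly rps1202, with 13, 21, 61 and 185 reads against 4, 2, 2 and 40 on rps1201. Family 6 was mostly rps601, with 40, 43, 72 and 114 reads against 4, 9, 10 and 34 on rps602. The leading copy was the same in every library in families 1, 6 and 12.

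Splicing of the rps introns was scored in reads that reached at least 10 nt past an intron on both sides. The spliced share was 47.9% in prp2-1 (116 of 242 scored crossings, interval 41.7 to 54.2) and 53.4% in the 37 °C wild type (125 of 234, 47.0 to 59.7). At 30 °C it was 44.2% in replicate 2 (280 of 633, 40.4 to 48.1) and 84.8% in replicate 1 (1336 of 1575, 83.0 to 86.5), a mean of 64.5% ± 28.7 (SD, n = 2). The 30 °C libraries lay on either side of both 37 °C libraries, and differed by more than any of the other comparisons below.

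Against the introns of all other genes, the rps introns were spliced more often in prp2-1, at 47.9% against 30.6%, a difference of 17.3 points (11.03 to 23.7). In the 37 °C wild type the shares were 53.4% and 52.0% (1.44 points, -5.02 to 7.80). In replicate 2 the rps share was 44.2% and that of the others 48.7% (-4.46 points, -8.42 to -0.435), and in replicate 1 they were 84.8% and 65.3% (19.5 points, 17.5 to 21.4). The rpl introns had shares of 52.8% in prp2-1, 58.5% in the 37 °C wild type, 54.0% in replicate 2 and 86.5% in replicate 1, each above the rps share of the same library.

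Between prp2-1 and the 37 °C wild type the rps share differed by -5.49 points (-14.3 to 3.48), which includes no difference, where that of all other introns differed by -21.4 points (-22.7 to -20). Taken intron by intron, the common odds ratio (Mantel-Haenszel) of a spliced read was 0.798 (0.548 to 1.16) for rps introns and 0.356 (0.331 to 0.383) for all others. The ratio of these odds ratios was 2.24 (1.53 to 3.28), so over all reads the prp2-1 library lay below the wild type by less at rps introns than at other introns. The rpl introns, counted here among the others, differed by -5.74 points (-14.8 to 3.43), with an odds ratio of 0.893 (0.589 to 1.36). The smaller difference was thus not particular to rps introns. The size of the rps difference depended on the reads kept. With reads that ended over 100 nt past the gene left out, the rps share differed by -15.1 points (-24.5 to -5.17), which excludes no difference, and that of all other introns by -22.6 points (-23.98 to -21.2). The ratio of the odds ratios was then 1.68 (1.07 to 2.63). The well-read rps introns did not stand out in this way. Of the 5 with at least 10 scored reads in both libraries 4 were lower in prp2-1, with a median difference of -21.7 points, against -15.7 points over all 68 such introns. Of the 17 with at least 5 reads in both 11 were lower and 5 higher (median -16.7), and of the 35 with any read in both 12 were lower and 18 higher (median 4.49). In the 6 sequencing cells that both libraries share, the rps share was lower in prp2-1 in 5 and the difference ranged between -13.1 and 4.54 points.

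Fisher's exact test, adjusted by Benjamini-Hochberg over all 68 introns tested, called 1 of the 5 rps introns between prp2-1 and the 37 °C wild type, where 13.2% of all introns were called. In rps3 intron 1, 4 of 13 reads were spliced in prp2-1 and 10 of 10 in the wild type, a difference of -69.2 points (-87.3 to -30.6, adjusted p = 0.0224 by the exact test). With repeated read names left out rps3 intron 1 no longer had 10 reads in both libraries and no rps intron was called. With a minimum of 5 reads the adjusted p of the exact test was 0.0532. At neither setting was the share called over all introns counted.

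The other 4 were not called. At rps2602 intron 1, 7 of 18 reads were spliced in prp2-1 and 16 of 22 in the 37 °C wild type (-33.8 points, -57.2 to -3.15). The shares at rps502 intron 1 were 7 of 21 and 8 of 18, and at rps27 intron 1 they were 2 of 10 and 5 of 12. rps1802 intron 1, in a gene of uS13, ran the other way, with 7 of 12 in prp2-1 and 7 of 13 in the wild type. The intervals at rps502, rps27 and rps1802 all included no difference.

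The 37 °C wild type had a lower rps share than replicate 1 of the same strain, with a difference of -31.4 points (-38.0 to -24.9), with an odds ratio of 0.186 (0.136 to 0.256) for rps introns and 0.626 (0.588 to 0.666) for the others. The rpl introns, among those others, lay near the rps introns, at -28.0 points (-34.3 to -21.9) and an odds ratio of 0.188 (0.136 to 0.260). Against replicate 2 the 37 °C wild type had a higher rps share, with a difference of 9.19 points (1.70 to 16.5), with an odds ratio by intron of 1.33 (0.962 to 1.85). The direction of a temperature difference therefore depends on which 30 °C library is taken. With reads that ended past the gene left out, the 37 °C wild type differed by -19.2 points (-26.7 to -12.5) from replicate 1 and by 21.5 points (13.1 to 29.3) from replicate 2. Of 9 rps introns tested against replicate 1, 8 were lower and 1 was called, where 4.17% of 96 introns were called. It was rps502 intron 1, with 8 of 18 reads spliced in the 37 °C wild type and 63 of 68 in replicate 1 (-48.2 points, -68.5 to -24.7, adjusted p = 0.00071 by the exact test). Against replicate 2, where 3.45% of 58 introns were called, 0 of 8 rps introns were called by Fisher's exact test and 1 had an unadjusted p under 0.05, and rps502 intron 1 was spliced in 13 of 28 reads of replicate 2. With the reads of replicate 1 at each intron thinned to the number in the 37 °C library, the adjusted p of the exact test at rps502 was 0.0811.

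The widest differences lay between the 30 °C libraries. Replicate 2 differed from replicate 1 by -40.6 points (-44.8 to -36.3) at rps introns and by -16.6 points (-17.9 to -15.3) at all others. The odds ratio by intron was 0.125 (0.0990 to 0.158) for rps and 0.506 (0.475 to 0.539) for the others, and their ratio was 0.247 (0.194 to 0.315). The rpl introns, among those others, differed by -32.5 points (-37.0 to -28), with an odds ratio of 0.177 (0.1396 to 0.2245). All 22 rps introns tested were lower in replicate 2, and Fisher's exact test called 16, all lower in replicate 2, where 35.5% of 107 introns were called. Among the rpl introns it called 15 of 23. With the deeper library thinned at each intron to the reads of the other, the exact test called 10 of the rps introns, and with a minimum of 20 reads 9. The share called over all introns was not counted at either setting, so these counts cannot be set against the 35.5%. Fewer introns are tested with a minimum of 20 reads.

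The largest difference among the 16 was at rps2402 intron 1, in a gene of eS24. There 10 of 35 reads were spliced in replicate 2 and 64 of 68 in replicate 1 (-65.6 points, adjusted p = 4.84e-10 by the exact test). rps1702 intron 1, in a gene of eS17, had 13 of 39 and 79 of 86 in the same order (-58.5 points, adjusted p = 1.40e-09 by the exact test). rps1802 intron 1 had 19 of 52 and 93 of 112 (-46.5 points). In all 3 the reads of replicate 1 were mostly spliced and those of replicate 2 mostly not.

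The differences of the other called introns lay between -26.0 and -57.9 points. rps1901 intron 1 (eS19) was spliced in 5 of 18 reads in replicate 2 and 24 of 28 in replicate 1, rps21 intron 1 (eS21) in 3 of 10 and 37 of 44, and rps1001 intron 1 (eS10) in 6 of 19 and 22 of 26. rps3 intron 1 had 6 of 13 and 69 of 74, rps502 intron 1 had 13 of 28 and 63 of 68, and rps2502 intron 2 had 13 of 36 and 72 of 94. All of these were spliced in under 50% of the reads of replicate 2.

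Among the remaining called introns, 5 were spliced in over 50% of the reads of replicate 2. rps1701 intron 1 was spliced in 21 of 30 reads of replicate 2 and 48 of 50 of replicate 1 (-26.0 points), rps1202 intron 1 in 26 of 41 and 60 of 67 (-26.1 points), and rps2602 intron 1 in 33 of 59 and 104 of 125 (-27.3 points). rps1601 intron 1 (uS9) had 11 of 19 and 58 of 61, and rps13 intron 1 (uS15) had 10 of 17 and 45 of 48. rps27 (eS27), spliced in under 50% of the reads of replicate 2, was called at both introns, with 8 of 22 and 27 of 37 at intron 1 and 7 of 18 and 37 of 43 at intron 2. The size of the difference thus varied more than the direction. Replicate 2 was sequenced in 3 cells and replicate 1 in 6, and replicate 2 differs in strain, so strain, preparation and run cannot be told apart.

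**Figure D2:**
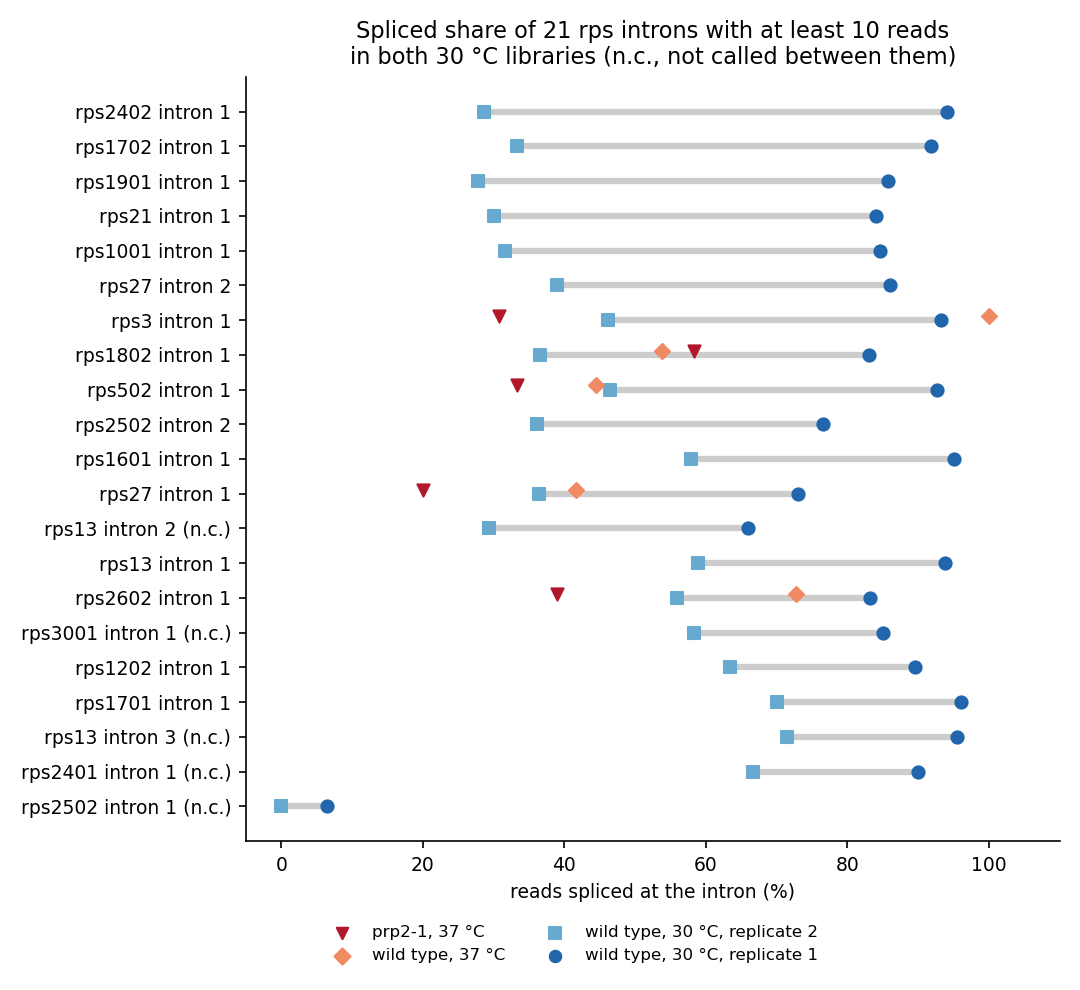
Spliced share (%) of 21 rps introns scored in 10 or more reads of each 30 °C library, ordered by the difference, with squares for replicate 2 and circles for replicate 1, and triangles (prp2-1) and diamonds (wild type) for the 5 introns that also had 10 reads in both 37 °C libraries. All squares lie left of their circles, and rps2502 intron 1 is alone near 0%.

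With introns that had at least 10 scored reads, the range over the rps genes was 20% to 64.3% in prp2-1 (9 introns, median 38.9%), 41.7% to 100% in the 37 °C wild type (9, 50%), 0% to 78.6% in replicate 2 (22, 42.5%) and 6.45% to 100% in replicate 1 (34, 85.9%). Without rps2502 intron 1, the lowest share in replicate 1 was 65.9%, at rps13 intron 2. The only rps intron in a UTR, in rps2202, was unspliced in all reads that crossed it: 1 in prp2-1, 1 in the 37 °C wild type, 6 in replicate 2 and 7 in replicate 1.

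The first intron of rps2502 stood apart. It was spliced in 0 of 4 reads in prp2-1, 0 of 4 in the 37 °C wild type, 0 of 31 in replicate 2 and 2 of 31 in replicate 1. Its second intron was spliced in 3 of 6, 3 of 7, 13 of 36 and 72 of 94 reads in the same order. That share depended on the reads. Of 20 reads of replicate 1 over both introns, 2 were spliced at both and 18 at neither. All 19 such reads of replicate 2 were spliced at neither. The reads spliced at intron 2 were thus almost all reads that did not cross intron 1. Many reads of this gene did not cross intron 1 because they began at exon 2. Reads whose start lay within 5 nt of the first base of exon 2 were 5 of 9 in prp2-1, 5 of 9 in the 37 °C wild type, 26 of 58 (44.8%, 32.8 to 57.6) in replicate 2 and 118 of 167 (70.7%, 63.4 to 77.0) in replicate 1. Among the 249 genes with introns and at least 20 reads in replicate 1, rps2502 alone reached that share, and the median gene had 0%. A further 1 read of rps2502 in replicate 2 and 6 in replicate 1 began 6 nt before exon 2.

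The paralogue differs in this. In rps2501 the first intron was spliced in 3 of 4 reads of replicate 2 and 14 of 14 of replicate 1, and 0 of 6 and 0 of 16 of its reads began at exon 2. Both first introns are 50 nt long, as printed above, and the copies share 86.7% of coding bases. The annotated exon 1 of rps2502 is 12 nt long, and that of rps2501, none of whose reads began at exon 2, is shorter, at 3 nt. All 14 reads of rps2501 in replicate 1 that began upstream of intron 1 began before the annotated start of the gene, against 2 of 32 such reads of rps2502. rps1702, with an exon 1 of 15 nt, had the next highest share among rps genes, at 25.2% of its reads in replicate 1 (33 reads) and 8 reads in replicate 2. Whether reads that begin at exon 2 came from spliced transcripts whose short first exon was not aligned, or began there, was not tested. With rps2502 intron 1 left out the rps spliced share was 48.7% in prp2-1, 54.3% in the 37 °C wild type, 46.5% in replicate 2 and 86.4% in replicate 1.

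**Figure D3:**
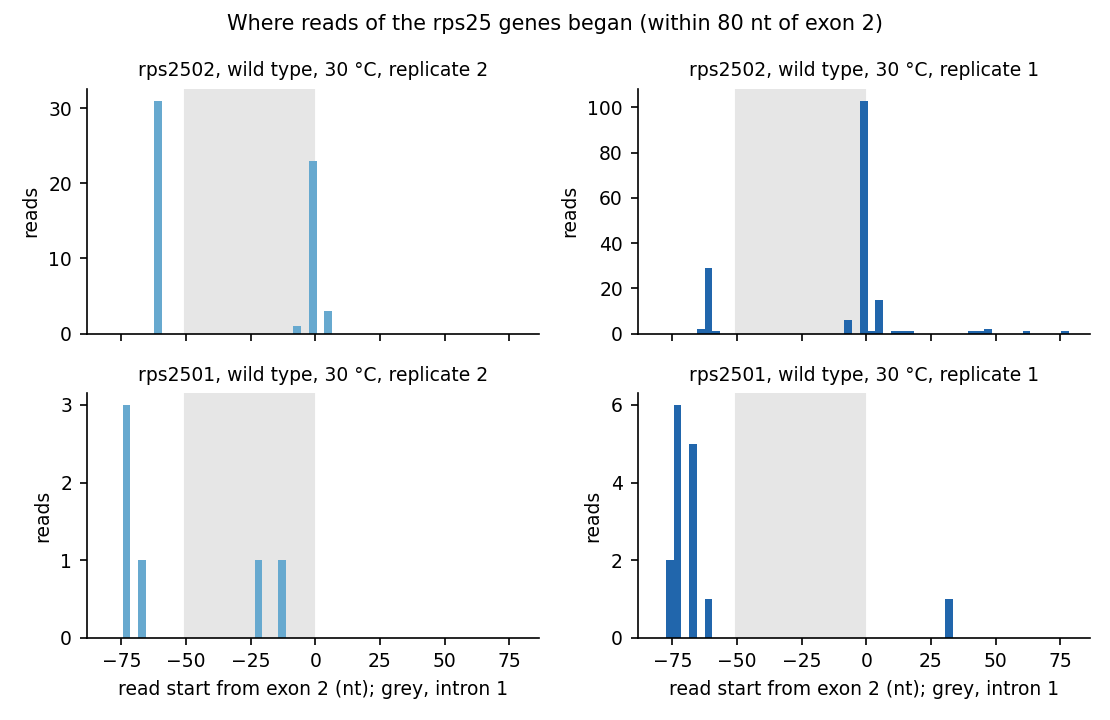
Start of the reads of rps2502 (upper panels) and rps2501 (lower panels) in replicate 2 (left) and replicate 1 (right) at 30 °C, in nt from the first base of exon 2, with intron 1 in grey and counts of reads on the vertical axes. Reads of rps2502 begin at 2 places, upstream of the intron and at exon 2, where those of rps2501 begin upstream of the intron with few exceptions.

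The spliced share also varied with how far the transcript had gone. In replicate 1, 83.3% of rps crossings were spliced where the 3′ end lay 10 to 50 nt past the intron, 90.5% at 50 to 100 nt, 86.5% at 100 to 200 nt, 87.6% at 200 to 400 nt and 74.8% beyond 400 nt. For the other genes of the same library the shares were 55.9%, 61.2%, 62.6%, 68.0% and 68.3%. The rps introns were therefore already at a high share in the nearest class (interval 74.9 to 89.3). The share beyond 400 nt (69.8 to 79.2) lay below that at 200 to 400 nt (84.7 to 89.98), where that of the other genes did not fall. The classes need not hold the same introns, and reads that ended past the gene were kept in them. With such reads left out, the rps share of replicate 1 over all distances was 88.4%, against 84.8% with them. Whether the fall beyond 400 nt remains without them was not tested.

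In replicate 2 the rps shares over the same classes were 41.7%, 64.5%, 35.4%, 42.2% and 44.7%. In the 37 °C wild type they were 66.7%, 76.5%, 63.0%, 52.0% and 48.5%, and in prp2-1 33.3%, 66.7%, 41.9%, 52.6% and 46.1%. The class of 50 to 100 nt was the highest in each library, on 18 crossings in prp2-1, 17 in the 37 °C wild type, 62 in replicate 2 and 231 in replicate 1. The nearest class held 9, 6, 24 and 102 crossings in the same order, too few at 37 °C to place it above or below the others.

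**Figure D4:**
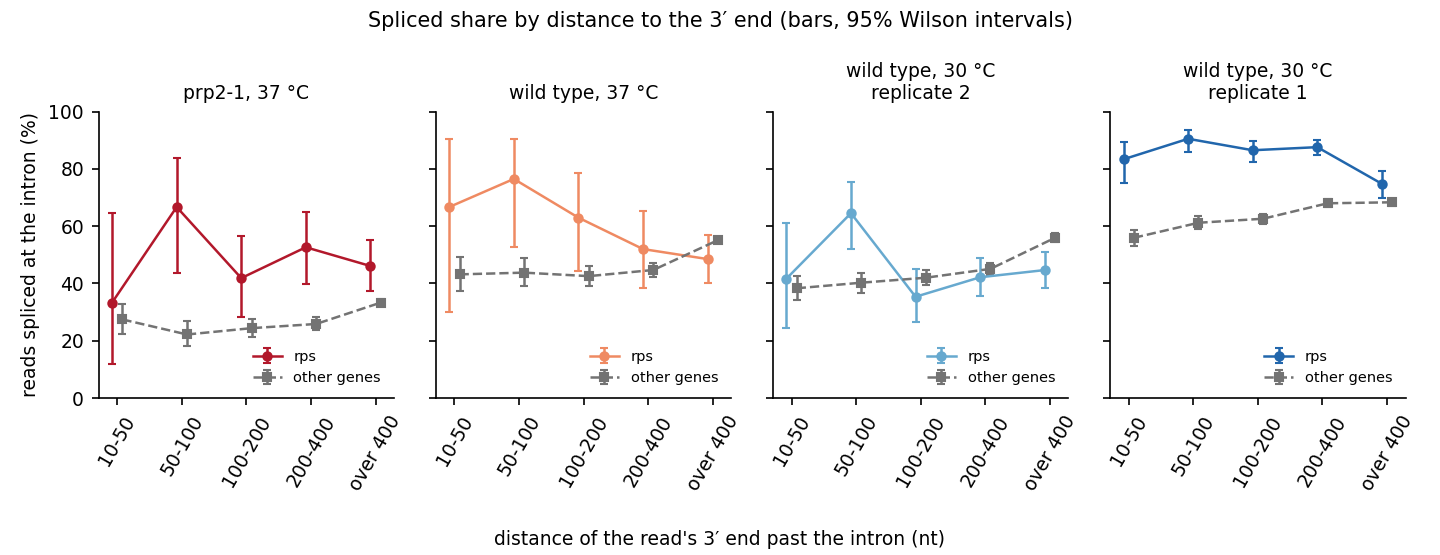
Share of reads spliced at an intron (%) by the distance of the 3′ end past the intron (nt, 5 classes) in each library, with solid lines for rps introns, dashed grey lines for introns of all other genes, and bars for 95% Wilson intervals. The rps line lies above the grey one over the whole range in replicate 1 (74.8% to 90.5%, against 55.9% to 68.3%) and in prp2-1, and lies below it in the farthest class of the 37 °C wild type and in the 3 classes beyond 100 nt of replicate 2.

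Adjacent introns of 1 gene can be read in the same molecule in 6 rps genes, at 7 pairs of introns. Both introns were in the same state, both spliced or both unspliced, in 87.5% of 32 rps reads in prp2-1, 95.7% of 23 in the 37 °C wild type, 82.9% of 76 in replicate 2 and 84.1% of 189 in replicate 1. In all other genes the shares were 81.2%, 84.1%, 87.8% and 86.5%. The common odds ratio for a shared state over rps pairs reached 136 in replicate 2, with an interval of 5.58 to 3291, and 124 in replicate 1, with one of 10.9 to 1426. For other genes it was 58.7 in replicate 2 and 105 in replicate 1. These intervals are too wide to set the groups apart.

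When the states of both introns were tested for dependence, Fisher's exact test called 3 of 6 rps pairs in replicate 1, where 52.1% of 71 pairs were called. In rps29 (uS14) 31 reads had both introns spliced, 4 had both unspliced and 0 were mixed (adjusted p = 0.000406 by the exact test). In rps27 the counts were 27 and 6, with 4 reads spliced at intron 2 alone (adjusted p = 0.000916 by the exact test). In rps2502 they were 2 and 18, with 0 mixed (adjusted p = 0.0178 by the exact test), among the reads that crossed its first intron at all. Of all reads scored at its intron 2, 72 of 94 were spliced. The reads left out of the test were thus mostly in the other state.

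rps13 was the exception in kind. Of 43 reads of replicate 1 over its introns 1 and 2, 29 were spliced at both, 2 at neither, 12 at intron 1 alone and 0 at intron 2 alone. Of 39 reads over introns 2 and 3, 26 were spliced at both, 1 at neither, 12 at intron 3 alone and 0 at intron 2 alone. Every mixed read thus kept intron 2. Replicate 2 gave the same pattern: 6 mixed reads at the first pair and 5 at the second, each with intron 2 kept. prp2-1 had 2 mixed reads at the first pair and 1 at the second, again with intron 2 kept. By library, rps13 intron 2 was spliced in 3 of 11 reads in prp2-1, 0 of 2 in the 37 °C wild type, 5 of 17 in replicate 2 and 29 of 44 in replicate 1. Intron 1 was spliced in 5 of 10, 1 of 3, 10 of 17 and 45 of 48, and intron 3 in 4 of 8, 0 of 1, 10 of 14 and 42 of 44. The exact test did not call either rps13 pair in replicate 1 (adjusted p = 0.146 and 0.430) or in replicate 2 (0.280 and 0.279).

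In rps27, with a first intron of 38 nt, the shortest printed above, 4 mixed reads of replicate 1 all kept intron 1. Replicate 2 had 1 mixed read that kept intron 1 and 1 that kept intron 2. rps3002 (eS30) had 7 reads of replicate 1 spliced at both introns, 1 at neither and 1 mixed in each way, and was not called. Replicate 2 gave 1 call among 4 rps pairs, rps27 (adjusted p = 0.0219 by the exact test), where 37.5% of 24 pairs were called. In the 37 °C wild type the 1 rps pair tested, rps27, was called (5 both spliced, 6 both unspliced and 1 mixed; adjusted p = 0.0318 by the exact test), where 50% of 42 pairs were called. No rps pair had 10 reads in prp2-1. The rps counts are thus near the rate over all pairs.

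Some transcripts had run on beyond the gene. Reads with a 3′ end over 100 nt downstream of the annotated gene were 6.69% of the rps reads in prp2-1 (38 reads), 17.6% in the 37 °C wild type, 11.3% in replicate 2 (151 reads) and 3.01% in replicate 1 (114 reads). prp2-1 lay below the 37 °C wild type, with a difference of -10.9 points (-14.6 to -7.17). The 37 °C wild type lay above replicate 2 by 6.25 points (2.86 to 9.90) and above replicate 1 by 14.6 points (11.6 to 17.9). Replicates 2 and 1 themselves differed by 8.31 points (6.62 to 10.2). The largest share was thus in the 37 °C wild type and the smallest in replicate 1.

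For all other genes the shares were closer together, 5.27% in prp2-1, 7.18% in the 37 °C wild type, 4.71% in replicate 2 and 3.81% in replicate 1. The rps share was above that of the other genes by 10.4 points (7.51 to 13.7) in the 37 °C wild type and by 6.62 points (5.01 to 8.45) in replicate 2. In replicate 1 it was lower, with a difference of -0.793 points (-1.32 to -0.179), and in prp2-1 the difference of 1.42 points had an interval that includes 0 (-0.375 to 3.80). The median read past the end reached 277 nt in prp2-1, 323 nt in the 37 °C wild type, 167 nt in replicate 2 and 208 nt in replicate 1.

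The rps genes with introns had a higher share of such reads than those without in each library. In 3 of the 4 libraries the interval of the difference excluded 0. In prp2-1 the shares were 10.1% with introns and 3.20% without, a difference of 6.90 points (2.84 to 11.2). The 37 °C wild type had 21.9% with and 13.9% without (7.93 points, 1.73 to 14.2), and replicate 2 had 16.3% and 6.14% (10.1 points, 6.80 to 13.5). In replicate 1 they were 3.45% and 2.48%, and the interval of the difference included 0 (-0.136 to 2.05). The reads of genes with introns include the rps3 reads wholly inside its intron. These numbered 40 in prp2-1, 31 in the 37 °C wild type, 14 in replicate 2 and 165 in replicate 1. No rps3 read ended past the gene in any library, so these reads lower the shares with introns. The differences without them were not tested.

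Within the genes with introns, unspliced reads had a higher share past the end than spliced ones in each library. Only rps reads that crossed every intron of their gene were compared. Of those unspliced at every intron, 22.1% ended past the gene in prp2-1 (21 of 95), against 5.15% of those spliced at every intron (5 of 97). In the 37 °C wild type these were 53.3% (48 of 90) and 6.14% (7 of 114), in replicate 2 22.2% (61 of 275) and 11.7% (27 of 230), and in replicate 1 28.1% (47 of 167) and 0.37% (4 of 1080). The common odds ratio over genes was 5.13 in prp2-1 (1.43 to 18.4). The 37 °C wild type had 20.3 (4.92 to 83.4) and replicate 1 had 75.6 (24.5 to 233). In replicate 2 it was 1.60 (0.951 to 2.69), which includes 1. These values depended on how far past the gene an end had to lie: in place of 100 nt, a limit of 50 nt gave 2.90 in replicate 2, and one of 200 nt gave 2.70 in prp2-1, 11.3 in the 37 °C wild type, 1.03 in replicate 2 and 131 in replicate 1. For the other genes the odds ratios were 2.04, 3.46 and 13.6 in those 3 libraries and 2.20 in replicate 2. The unspliced reads past the end bear on the spliced shares too: with reads that ended past the gene left out, the rps share was 54.2% in prp2-1 and 69.2% in the 37 °C wild type.

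**Figure D5:**
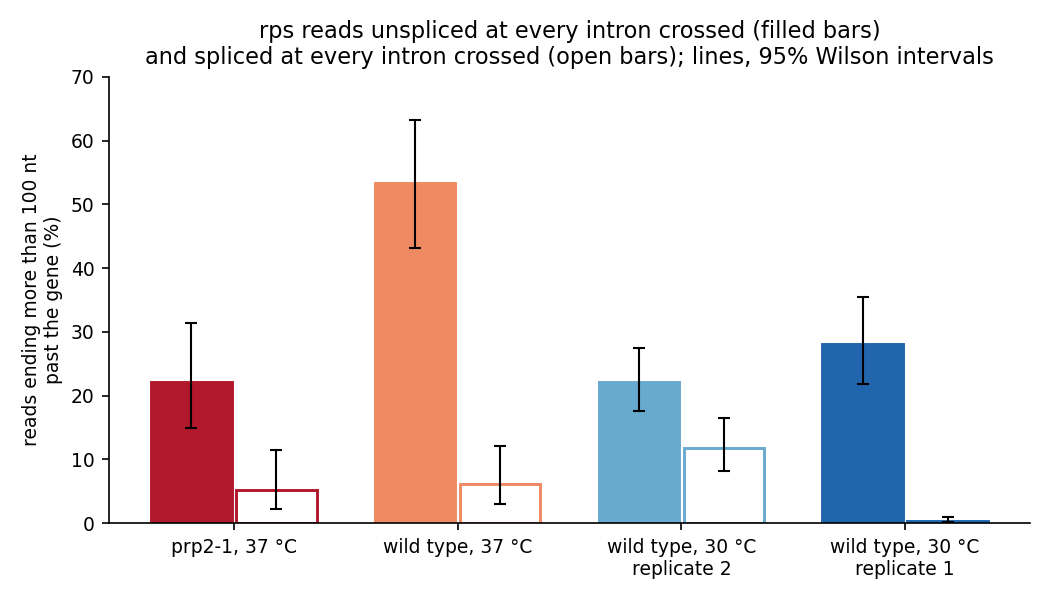
Share of rps reads that ended more than 100 nt past the gene (%), by library, with lines for 95% Wilson intervals. Only reads that crossed every intron of their gene are counted, unspliced at every one (filled bars) or spliced at every one (open bars). The filled bar is higher in each library, with 22.1% against 5.15% in prp2-1 and 53.3% against 6.14% in the 37 °C wild type, and the 30 °C replicates differ in the open bar, at 11.7% in replicate 2 and 0.37% in replicate 1.

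The rps genes with the most reads past the end were rps2602, rps2502, rps1802 and rps2402, all with introns. rps2602 had 5 of 18 reads past the end in prp2-1, 5 of 23 in the 37 °C wild type, 16 of 63 in replicate 2 and 14 of 133 in replicate 1. rps2502 had 1 of 9, 3 of 9, 13 of 58 and 13 of 167 in the same order. Both had their lowest share in replicate 1.

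rps1802 had 1 of 12 reads past the end in prp2-1, 3 of 14 in the 37 °C wild type, 17 of 54 in replicate 2 and 8 of 124 in replicate 1. rps2402 had 3 of 7, 5 of 6, 14 of 37 and 3 of 82. At rps2402 replicate 1 was thus the only library in which few reads went past the end.

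Gene by gene, the exact test of unspliced against spliced reads called both rps genes tested in replicate 1, where 43.8% of 16 genes were called. At rps2602, 9 of 21 unspliced and 4 of 104 spliced reads ended past the gene (adjusted p = 4.94e-05 by the exact test). At rps1802 they were 4 of 19 and 0 of 93 (adjusted p = 0.00166 by the exact test). In replicate 2, 1 of 6 rps genes was called, where 9.09% of 11 genes were called. It was rps1202, with 7 of 15 unspliced and 0 of 26 spliced reads past the end (adjusted p = 0.00315 by the exact test). At rps2402 in replicate 2 the spliced reads led, with 7 of 25 unspliced and 6 of 10 spliced, and this was not called (adjusted p = 0.339 by the exact test).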

How the data were processed

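The deposited files hold 1 line per aligned read with its chromosome, start, end, strand and aligned blocks; the authors applied no normalisation that the labels describe. Per the submitters' processing notes cutadapt 1.8 was used; the aligner and genome build are not given in the sources used here. Coordinates were read on the ASM294v3 annotation. Per the labels' protocols, cDNA was amplified by a low-cycle PCR.

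A read belonged to the gene on its strand that it overlapped most. Reads were scored where they reached 10 nt past both sides of an intron: as spliced with a gap that ends within 5 nt of each annotated site, as unspliced with at least 90% of the intron aligned and no gap of 20 nt or more. Introns, intron pairs and genes with at least 10 scored reads were tested with Fisher's exact test (two-sided, scipy 1.17.1, Python 3.11.15), with Benjamini-Hochberg adjustment over everything tested in the comparison and a threshold of 0.05. Shares have Wilson and differences Newcombe intervals, and common odds ratios are Mantel-Haenszel estimates, all at 95%. Nothing but the strain labels says that the 30 °C libraries are separate cultures.

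The members, the lists beside them (rpl, 40S assembly factors) and the tests were chosen with earlier results of these data known. Named genes were the 6 with most reads, the called introns, the paralogue families with 1 intronless copy and the 4 others with most reads, intron pairs with 10 reads in replicate 1, and the 4 genes with most reads past the end. One rps gene is not reported here by name. Alternatives were identical alignments counted once, repeated read names left out, exact gap ends, a reach of 20 nt, minimums of 5 and 20 reads, thinning, reads past the gene left out, distances of 50 and 200 nt, each sequencing cell, and each 30 °C library left out; those with replicate 2, reads of 500 nt, rps2502 intron 1, the rps3 intron or other introns without reads past the gene were added after seeing the data.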

Additional observations from a re-analysis of the deposited data

How the results depend on the processing

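With identical alignments counted once, the spliced share in replicate 1 was 82.9%, the 30 °C mean of adjacent introns in 1 state 82.2%, and the rps share of protein-coding reads 2.02% in prp2-1, 2.09% in the 37 °C wild type and 5.81% in replicate 1. With repeated read names left out, the rps share of reads in the 37 °C wild type was 2.05%, and 0 rps introns were called between prp2-1 and the 37 °C wild type. The share called over all introns was not counted with these names left out. At this setting 1 of 17 rps genes was lower in prp2-1 than in the 37 °C wild type, against 6.45% of 434 genes, which is near the background. Adjacent introns of the 37 °C wild type were then in 1 state in 100% of reads. With reads that end past the gene left out, the spliced share was 69.2% in the 37 °C wild type and 88.4% in replicate 1, prp2-1 minus the 37 °C wild type was -15.1 points, and the 37 °C wild type minus replicate 1 was -19.2 points. Over single sequencing cells the share ranged between 35.7% and 55.6% in prp2-1, 38.0% and 52.0% in replicate 2, and 82.9% and 97.1% in replicate 1, and prp2-1 minus the 37 °C wild type reached 4.54 points. The median intron of prp2-1 stood at 38.9%.

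The difference of the 37 °C wild type from 30 °C reversed with the library: 9.19 points against replicate 2, with 0 rps introns called. Called rps introns numbered 0 (prp2-1 against the 37 °C wild type), 2 (37 °C wild type against replicate 1) with a minimum of 5 reads, and 0, 0 and 9 (replicate 2 against replicate 1) with a minimum of 20, where fewer introns are tested. With the deeper library thinned they numbered 0 for the 37 °C wild type and 10 for replicate 2, both against replicate 1. The shares called over all introns at these minimums and with thinning were not counted. Of the named introns 7 lost their call with thinning, 2 with a minimum of 5, 1 with identical alignments counted once and 1 against replicate 2. None changed sign in the settings in which it was tested. Introns that were no longer tested at a setting are not in this tally. Among these were rps1702 intron 1 at a reach of 20 nt and rps3 intron 1 with repeated names left out. Several more were not tested with a minimum of 20.

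The 30 °C mean of adjacent introns in 1 state was 80.01% with a reach of 20 nt and 82% over pairs with 10 reads. Reads ending past the gene were 15.5% in replicate 2 and 3.67% in replicate 1 at 50 nt, and 12.6% in the 37 °C wild type, 3.90% in replicate 2 and 1.72% in replicate 1 at 200 nt; the odds ratio of replicate 2 was 2.90 at 50 nt. With reads of at least 500 nt the rps share of reads was 1.77% in prp2-1, 1.81% in the 37 °C wild type and 5.86% in replicate 1. With these reads, prp2-1 was higher than the 37 °C wild type at 1 of 15 rps genes, against 11.4% of 420 genes. The 37 °C wild type was lower than replicate 1 at 24 of 28, against 22.8% of 429 genes. Replicate 2 was higher than replicate 1 at 1 of 31, against 13.8% of 347 genes. Without the rps3 reads wholly in its intron, replicate 1 had 5.86%. The 30 °C mean of the spliced share was 44.2% without replicate 1 and 84.8% without replicate 2. In 177 combinations of a result and a setting the value stayed within the interval, the SD or 1.5 times the count reported. Outside these limits 31 values moved, 10 counts were lower, 3 were higher and 1 difference changed sign. The 177 include the 30 °C means with 1 replicate left out, which cannot fall outside the SD of 2 libraries and so test nothing. They also include the 30 °C libraries with repeated read names left out. No rps read there bore a repeated name, so the rps shares could not change. For the 30 °C mean of the spliced share the SD of 28.7 was also too wide to show a move at the other settings. Where a value moved, the cause was not tested. No paired analysis was possible because each 37 °C group has 1 library, so no groups share a pair of replicate numbers. Depth limits the 37 °C comparison of single introns, in which 5 of 38 rps introns had 10 reads in both libraries.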

Other observations

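Few reads ran opposite to the rps genes: 14 in prp2-1, 11 in the 37 °C wild type, 36 in replicate 2 and 16 in replicate 1 overlapped an rps gene by at least 50 nt on the other strand, and the gene with the most held 3. Of the gaps in rps reads, 2 of 118 in prp2-1, 0 of 125 in the 37 °C wild type, 1 of 282 in replicate 2 and 1 of 1338 in replicate 1 lay off the annotated introns. In 2 places rps genes lie next to each other on the same strand, rps29 and rps27 with 441 nt between them and rps1402 and rps1601 with 1000 nt, and 0 reads in each library covered both genes of a pair.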
